A study of Mus musculus with 9 samples.

Results

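The genes described here are 10 regulators of pre-mRNA splicing: 8 genes of SR splicing factors (Srsf1, Srsf2, Srsf3, Srsf5, Srsf6, Srsf7, Srsf10 and Srsf11) and 2 genes of CDC-like kinases (Clk1 and Clk4). They were taken by gene symbol from the deposited table of RNA-seq counts, so they are 10 of its 55401 genes, and all 10 were among the 16762 genes kept by a filter on low counts. The 9 libraries hold poly(A)-enriched RNA of primary neonatal mouse ventricular myocytes (NMVMs) of wild-type C57BL/6J mice taken at 1 day of age. The 3 control libraries came from cells at normal oxygen in DMEM with 10% FBS. The 3 hypoxia libraries came from cells washed into DMEM without glucose and serum and closed for 6 h in a chamber with an AnaeroPack-MIC pack. The 3 hypoxia + rSRGN libraries had the same medium and chamber, with recombinant serglycin (rSRGN), a secreted proteoglycan, added for that time; its dose is not given in the sources used here. Loss of oxygen, of glucose and of serum came together, so their shares in any difference from control cannot be told apart. The labels do not say whether libraries of a group came from separate cultures or litters, so the p-values measure only the spread between these libraries, which may be technical.

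SR proteins carry RNA recognition motifs and a tail rich in arginine and serine (the RS domain), and they bind exons and help the spliceosome to find the splice sites beside them. CLK kinases phosphorylate the RS domain and so release SR proteins from nuclear speckles. Many SR genes also limit themselves: their transcripts can include a poison exon with an early stop codon, which sends them to nonsense-mediated decay, and Clk1 and Clk4 transcripts are known to keep introns in the nucleus. In the mouse heart, SRSF1 is known for the splicing of the calcium-dependent kinase CaMKII delta, and loss of SRSF2 from heart muscle for dilated cardiomyopathy. Counts per gene add up all isoforms, so neither poison exons nor kept introns were measured here.

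The proximal promoters are shown for 4 genes, chosen after the values were seen. They are Srsf7, which rose most in hypoxia, and Srsf5, the lone SR gene called lower (in hypoxia + rSRGN against control). The others are the 2 genes that hold motifs found in no other of these promoters, Srsf6 and Clk4. Each sequence runs 5′ to 3′ on the strand of the gene, from 250 to 11 bases before the RefSeq start. These 4 windows hold 0 bases of exon in the annotation of the files, although that annotation starts Clk4 further upstream, so the window of Clk4 lies within the gene as annotated there. It was taken from RefSeq (GRCm38.p6), which gave a promoter for 9 of the 10 genes. Capitals mark matches, on either strand, to the short form (TGACG) and the full form (TGACGTCA) of the cAMP response element (CRE) and to the core of the hypoxia response element (ACGTG).
Srsf7, chr17:80207316-80207555, minus strand: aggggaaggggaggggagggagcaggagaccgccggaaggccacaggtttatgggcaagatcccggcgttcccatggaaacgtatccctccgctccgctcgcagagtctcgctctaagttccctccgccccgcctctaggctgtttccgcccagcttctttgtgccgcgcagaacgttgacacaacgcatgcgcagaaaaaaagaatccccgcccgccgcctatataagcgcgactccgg
Srsf5, chr12:80945249-80945488, plus strand: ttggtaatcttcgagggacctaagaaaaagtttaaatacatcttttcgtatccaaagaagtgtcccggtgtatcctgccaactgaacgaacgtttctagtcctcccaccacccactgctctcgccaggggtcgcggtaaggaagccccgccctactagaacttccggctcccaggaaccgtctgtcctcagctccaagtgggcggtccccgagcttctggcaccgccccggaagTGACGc
Srsf6, chr2:162931258-162931497, plus strand: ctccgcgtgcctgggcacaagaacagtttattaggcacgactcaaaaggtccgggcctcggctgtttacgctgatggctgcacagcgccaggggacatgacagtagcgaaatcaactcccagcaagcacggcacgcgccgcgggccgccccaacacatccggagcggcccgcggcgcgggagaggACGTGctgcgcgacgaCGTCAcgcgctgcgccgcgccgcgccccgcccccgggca
Clk4, chr11:51262864-51263103, plus strand: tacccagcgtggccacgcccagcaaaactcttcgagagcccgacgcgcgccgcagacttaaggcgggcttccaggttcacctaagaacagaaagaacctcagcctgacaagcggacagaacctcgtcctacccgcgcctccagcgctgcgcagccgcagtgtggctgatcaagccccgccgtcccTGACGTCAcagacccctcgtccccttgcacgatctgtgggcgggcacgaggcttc
The short CRE form was present in a window of 7 of the 9 genes (Srsf1, Srsf3, Srsf5, Srsf6, Srsf10, Srsf11 and Clk4), and in 16.9% of all 32851 windows of the same length. Among the 13055 windows of genes with at least 10 counts in every library the share was 25%. Of these 7 genes, the windows of 3 held annotated exon: all 240 bases in Srsf10, 22 in Srsf3, and 23 and 16 in the windows of Srsf11. The full CRE, which contains the short form, lay in Clk4 alone, 65 bases before the start, and in 1.44% of all windows (2.38% of those of genes with at least 10 counts). The hypoxia response element core lay in Srsf6 alone, also 65 bases before the start, and in 15.9% of all windows (20.9%, likewise). The TATA box (TATAAA) was present in Srsf2, 29 bases before the start, and in Srsf3, 18 bases before it, against 12.1% of all windows (6.45%). The match in Srsf3 lies within the 22 bases of annotated exon. A pair of heat shock units (GAANNTTC) was present in 0 of the 9 genes and in 6.33% of all windows (4.65%). TATAAA was searched as exact letters, so a related form, such as tatataag near the end of the Srsf7 window, was not counted. Srsf7 held no match to any of these exact motifs in its window. These are matches of letters and not measured binding.

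The libraries held 16583985 to 22781557 counts, and the lowest count of any of the 10 genes in a library was 1108 (Clk4, control replicate 3). The 10 cardiomyocyte markers were detected in all groups, but their summed level was 41877 to 51519 CPM (counts per 1000000 counts of the TMM-scaled library size) in control, 3561 to 5357 in hypoxia and 6823 to 7237 in hypoxia + rSRGN. The 8 fibroblast markers summed to 8657 to 10243, 17099 to 19890 and 18917 to 19478 CPM, and the 7 macrophage markers to 37.1 to 45.5, 9.96 to 10.9 and 11.5 to 14.4 CPM, in the same order. All 7 macrophage markers were called lower in hypoxia against control, with a median log2 value of -4.71, and 6 of the 8 fibroblast markers higher, with a median of 0.90. The part of these shifts in the levels below was not tested, and in bulk libraries fewer cells of a type and less RNA per cell cannot be told apart. Mitochondrial rRNA took 0.195 to 0.239% of counts in control and 2.27 to 2.67% in the 6 hypoxic libraries.

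Srsf5 was the most abundant of the 10 genes per length in every group. In control it had 73.4 ± 2.75 CPM per kb of annotated exon (SD, n = 3), followed by Srsf2 (52.9 ± 1.33), Srsf6 (37.8 ± 1.93), Srsf1 (32.1 ± 3.35), Srsf3 (29.8 ± 1.9) and Srsf7 (22.1 ± 1.49). Srsf11 (16.8 ± 1.35), Srsf10 (14.8 ± 0.826), Clk1 (11.5 ± 1.19) and Clk4 (9.67 ± 0.504) had the lowest levels per kb. Srsf1 and Srsf3 were the only neighbours in this order whose control libraries overlapped. In hypoxia, Srsf7 reached 43.6 ± 2.44 CPM per kb, stood above Srsf3 (37.2 ± 3.8) and overlapped Srsf6 (45.1 ± 3.37), while Srsf5 still led at 63.8 ± 6.65. With rSRGN, Srsf5 came down to 46.9 ± 1.53 CPM per kb and overlapped Srsf2 (43 ± 2.81), and Clk1 (9.44 ± 0.946) lay below Clk4 (12.1 ± 0.28) with no overlap. The length is that of all annotated exons together, so these orders depend on how much untranslated and alternative exon each gene has in the annotation.

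**Figure D1:**
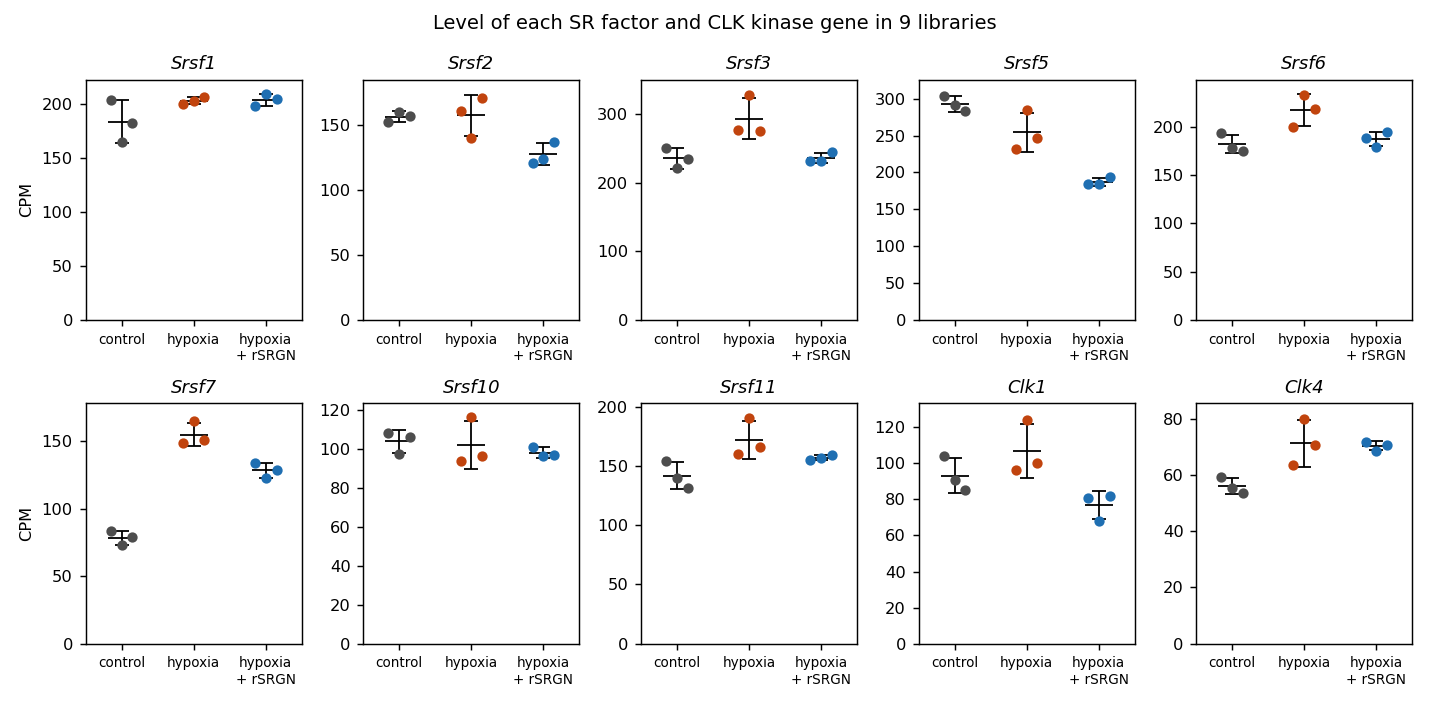
Level of each gene in CPM (y axis, from 0, own scale per panel) in the 3 libraries of control, hypoxia and hypoxia + rSRGN (x axis). Points are libraries and bars are the mean ± SD; Srsf7 lies at 72.9 to 83.4 CPM in control and at 149 to 165 in hypoxia, and Srsf5 is lowest in hypoxia + rSRGN, while its control and hypoxia libraries overlap.

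Of the 10 genes, 1 was called higher in hypoxia than in control and 0 lower, where a call is an adjusted p below 0.05 in edgeR's quasi-likelihood test, adjusted by Benjamini-Hochberg, and a fold of at least 1.5. Of all 16762 genes, 26.4% were called higher and 25.1% lower. With the adjusted p alone, 5 of the 10 were higher (Srsf3, Srsf6, Srsf7, Srsf11 and Clk4) and 1 lower (Srsf5), against 36.8% and 34.1% of all genes. The median log2 fold change was 0.23 over the 10 genes and 0.054 over all genes. In the comparison of hypoxia + rSRGN with hypoxia, 0 of the 10 were called in either direction, where 2.27% of all genes were called higher and 0.859% lower. These shares rest on 525 genes, 72.57% of them higher, which became 321 genes, 62.62% of them higher, without hypoxia replicate 3. DESeq2 also called 0 of the 10 genes, and 6 of them had an unadjusted p below 0.05 in edgeR. With the adjusted p alone, those 6 were lower (Srsf2, Srsf3, Srsf5, Srsf6, Srsf7 and Clk1) and 0 higher, against 6.11% lower and 10.5% higher of all genes, and the median was -0.24 over the 10 and -0.029 over all genes. Without hypoxia + rSRGN replicate 2 the 6 became 2, Srsf5 and Clk1. In hypoxia + rSRGN against control, Srsf7 was called higher and Srsf5 lower, against 24.1% and 24.7% of all genes, and 2 were higher and 3 lower with the adjusted p alone, against 34.4% and 34.3%. The comparisons share libraries, so a gene that is high in the 3 hypoxia libraries is moved up in the first and down in the second.

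**Figure D2:**
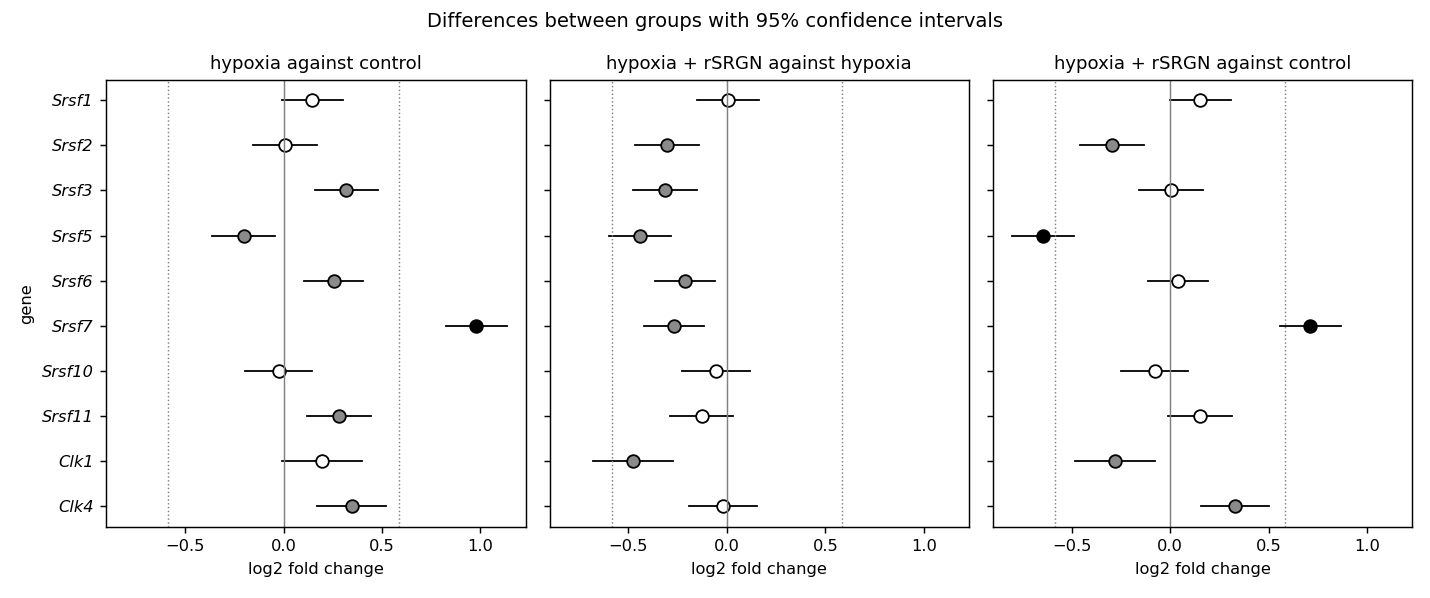
Log2 fold change (x axis) of each gene (y axis) in the 3 comparisons, with 95% confidence intervals from the edgeR fit. Black points were called, grey points passed the adjusted p but not the fold of 1.5 (dotted lines), and white points passed neither; Srsf7 is the only black point in hypoxia against control, and no point is black in hypoxia + rSRGN against hypoxia.

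Srsf7 and Srsf3 encode SR proteins with a lone RNA recognition motif, and both also bind the nuclear export receptor NXF1 and take part in mRNA export and polyadenylation. Srsf7 had 83.4, 72.9 and 79.4 CPM in control, 149, 165 and 151 CPM in hypoxia and 134, 123 and 129 CPM in hypoxia + rSRGN. All hypoxic libraries, with and without rSRGN, lay above all control libraries, and the hypoxia + rSRGN libraries lay below those of hypoxia. Srsf7 rose 1.97-fold in hypoxia (log2 0.98 ± 0.075 SE, 95% interval 0.82 to 1.13, adjusted p = 9.32e-11, edgeR; errors of log2 values are SE throughout). With rSRGN it was 1.2-fold lower than in hypoxia (log2 -0.27 ± 0.074, adjusted p = 0.0162), which stayed 1.64-fold above control (log2 0.71 ± 0.075, adjusted p = 2.06e-08). The difference between the hypoxic groups did not pass without hypoxia + rSRGN replicate 2 (adjusted p = 0.103) or replicate 3 (adjusted p = 0.0581).

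Srsf3, the smallest member of the family, had 251, 221 and 235 CPM in control, 277, 328 and 275 CPM in hypoxia and 232, 231 and 245 CPM in hypoxia + rSRGN. The hypoxia libraries lay above all others, and the control and hypoxia + rSRGN libraries overlapped. The level was 1.25-fold higher in hypoxia than in control (log2 0.32 ± 0.078, adjusted p = 0.000965) and 1.24-fold lower with rSRGN than in hypoxia (log2 -0.31 ± 0.078, adjusted p = 0.00812). That second difference did not pass without hypoxia + rSRGN replicate 2 (adjusted p = 0.0554). The log2 difference between hypoxia + rSRGN and control was 0.004, with an interval of -0.16 to 0.17.

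Srsf5 and Srsf6 belong to the SR proteins with a pair of RNA recognition motifs and bind exonic enhancers. Srsf5 had 304, 291 and 283 CPM in control, 232, 284 and 247 CPM in hypoxia and 184, 184 and 194 CPM in hypoxia + rSRGN. Hypoxia replicate 2 reached into the range of control, and all hypoxia + rSRGN libraries lay below all others. Srsf5 fell 1.56-fold in hypoxia + rSRGN against control (log2 -0.65 ± 0.076, 95% interval -0.80 to -0.49, adjusted p = 1.34e-07). Under upper quartile scaling its log2 value was -0.56, under the fold limit. Srsf5 was also 1.36-fold lower with rSRGN than in hypoxia (log2 -0.44 ± 0.077, adjusted p = 0.000575), past the adjusted p in all 18 alternatives tried. In hypoxia against control the log2 difference was -0.20 ± 0.076 (adjusted p = 0.0213). That one passed in 13 of the 18 alternatives, and it lost the adjusted p without control replicate 1 (0.0506), hypoxia replicate 1 (0.125) or hypoxia replicate 3 (0.0556), and under upper quartile scaling (log2 -0.068, adjusted p = 0.394) or library size alone (log2 -0.14, adjusted p = 0.0987).

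Srsf6 had 193, 178 and 175 CPM in control, 200, 233 and 218 CPM in hypoxia and 188, 179 and 194 CPM in hypoxia + rSRGN. The hypoxia libraries were the 3 highest, and the other groups overlapped. Srsf6 was 1.19-fold higher in hypoxia than in control (log2 0.25 ± 0.073, adjusted p = 0.00394). Its difference between the hypoxic groups was at the edge of the test (log2 -0.21 ± 0.073, adjusted p = 0.0489) and passed in only 4 of the 18 alternatives. Among those 4 is the setting with no fold limit, which leaves the adjusted p unchanged. With the replicate block, a term for the replicate number, the adjusted p was 0.0728. It did not pass without any of control replicates 1, 2 and 3, hypoxia replicates 2 and 3 or hypoxia + rSRGN replicates 1, 2 and 3, with adjusted p of 0.0652 to 0.216.

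Srsf1, the founding SR protein, which also acts in mRNA export and translation, had 204, 165 and 182 CPM in control, 200, 203 and 206 CPM in hypoxia and 198, 209 and 205 CPM in hypoxia + rSRGN. The 6 hypoxic libraries lay within a narrow range that included control replicate 1. The log2 difference of hypoxia from control was 0.15, with an interval of -0.009 to 0.30 (adjusted p = 0.0862), and passed the adjusted p without control replicate 1 (log2 0.21, adjusted p = 0.0211), under upper quartile scaling (log2 0.28, adjusted p = 0.00165) and under library size alone (log2 0.21, adjusted p = 0.0151), while without control replicate 2 it was 0.055 (adjusted p = 0.553). The difference between the hypoxic groups was 0.006, with an interval of -0.15 to 0.16.

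Srsf2, long known as SC35, had 152, 160 and 157 CPM in control, 161, 140 and 171 CPM in hypoxia and 121, 124 and 137 CPM in hypoxia + rSRGN. Control and hypoxia overlapped, and the 3 libraries with rSRGN were the lowest of the 9. The log2 difference was 0.008 (interval -0.15 to 0.17) in hypoxia against control and -0.31 ± 0.079 in hypoxia + rSRGN against hypoxia, where Srsf2 was 1.24-fold lower (adjusted p = 0.0104). That second difference did not pass without hypoxia replicate 3 (adjusted p = 0.0641), hypoxia + rSRGN replicate 1 (0.072) or hypoxia + rSRGN replicate 2 (0.0653). Against control, hypoxia + rSRGN was 1.23-fold lower (adjusted p = 0.00196), and this passed in all 18 alternatives. Srsf2 shares 460 of its 2958 exon bases (15.6%) with Mettl23 and 288 (9.74%) with Mfsd11, both on the opposite strand, and without strand the fragments there cannot be told apart. Mettl23 had a log2 value of -0.47 (adjusted p = 0.0151) and Mfsd11 of 0.038 (adjusted p = 0.806) between the hypoxic groups, and in hypoxia against control these were -0.048 (adjusted p = 0.741) and 0.50 (adjusted p = 1.19e-05).

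Srsf10 and Srsf11 are less typical family members. SRSF10 is known as a splicing repressor when heat shock removes its phosphates. Srsf10 had 108, 97.1 and 106 CPM in control, 93.6, 116 and 96 CPM in hypoxia and 101, 96.2 and 96.9 CPM in hypoxia + rSRGN. The 3 groups overlapped throughout. The log2 difference was -0.025 in hypoxia against control (interval -0.19 to 0.14, adjusted p = 0.8), -0.055 between the hypoxic groups (interval -0.23 to 0.12) and -0.08 in hypoxia + rSRGN against control (interval -0.25 to 0.09). None of the 18 alternatives brought Srsf10 past the adjusted p in any comparison, and each interval leaves out a fold of 1.5.

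SRSF11, also called p54, is known for setting small neuronal exons. Srsf11 had 154, 140 and 131 CPM in control, 160, 190 and 166 CPM in hypoxia and 155, 157 and 159 CPM in hypoxia + rSRGN. The hypoxia libraries were the 3 highest and the hypoxia + rSRGN libraries lay just under them. Srsf11 was 1.21-fold higher in hypoxia than in control (log2 0.28 ± 0.078, adjusted p = 0.00304), which passed in all 18 alternatives. The log2 difference between the hypoxic groups was -0.13, with an interval of -0.29 to 0.033 (adjusted p = 0.286), although their libraries did not overlap. It ran from -0.18 to -0.049 (without hypoxia replicate 2) over the 18 alternatives, and 0 of them passed.

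The kinase genes Clk1 and Clk4 encode close relatives that act on SR proteins, and their values are given side by side. Clk1 had 104, 90.6 and 85 CPM in control, 96.4, 124 and 100 CPM in hypoxia and 80.8, 67.9 and 81.6 CPM in hypoxia + rSRGN. Clk4 had 59.3, 55.4 and 53.5 CPM in control, 63.4, 80 and 70.5 CPM in hypoxia and 71.8, 68.6 and 70.7 CPM in hypoxia + rSRGN. For Clk1 the libraries with rSRGN lay below all others, and for Clk4 the libraries of both hypoxic groups lay above control and overlapped each other.

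Clk1 was 1.39-fold lower in hypoxia + rSRGN than in hypoxia (log2 -0.48 ± 0.098, 95% interval -0.68 to -0.27, adjusted p = 0.00214), the lowest value of the 10 genes in that comparison. It passed the adjusted p in all 18 alternatives, at log2 values from -0.55 to -0.36. In hypoxia against control the log2 value of Clk1 was 0.20 (interval -0.006 to 0.40, adjusted p = 0.0768), and it passed without control replicate 1 (adjusted p = 0.0359), hypoxia replicate 1 (0.0282) or hypoxia replicate 3 (0.049), and under upper quartile scaling (log2 0.33, adjusted p = 0.00294) or library size alone (log2 0.26, adjusted p = 0.0181). It was smaller without hypoxia replicate 2 (log2 0.075, adjusted p = 0.458) or control replicate 3 (log2 0.12, adjusted p = 0.325). Against control, Clk1 with rSRGN was 1.22-fold lower (adjusted p = 0.0149), which did not hold without control replicate 1 (adjusted p = 0.0992) or hypoxia + rSRGN replicate 2 (adjusted p = 0.112), or under upper quartile scaling (adjusted p = 0.073).

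Clk4 was 1.27-fold higher in hypoxia than in control (log2 0.35 ± 0.084, adjusted p = 0.000896) and 1.25-fold higher in hypoxia + rSRGN than in control (log2 0.33 ± 0.084, adjusted p = 0.00153). Both passed in all 18 alternatives. With and without rSRGN the log2 difference was -0.019, with an interval of -0.19 to 0.15 (adjusted p = 0.915). Clk4 shares 59 of its exon bases (1.02%) with Gm25082, a small RNA gene with 112 counts over the 9 libraries.

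The ratio of 2 genes within a library does not depend on how libraries are scaled. Such ratios were taken for Srsf7 to Srsf3 and for Clk1 to Clk4, chosen after the values were seen. Srsf7 to Srsf3 was 0.333, 0.33 and 0.338 in control, 0.537, 0.502 and 0.547 in hypoxia and 0.576, 0.534 and 0.526 in hypoxia + rSRGN. Control was apart from both hypoxic groups, which overlapped. Clk1 to Clk4 was 1.75, 1.64 and 1.59 in control, 1.52, 1.55 and 1.42 in hypoxia and 1.13, 0.989 and 1.15 in hypoxia + rSRGN. The 3 groups did not overlap, so the step between the hypoxic groups (1.5 ± 0.067 to 1.09 ± 0.088, SD, n = 3) was larger than the spread within them. In the exact two-sided permutation test, p was 0.1 for each comparison of these ratios except Srsf7 to Srsf3 between the hypoxic groups (p = 0.6). With 3 libraries against 3, 0.1 is the smallest p this exact test allows, and over the 6 tests the adjusted values were 0.12 and 0.6.

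**Figure D3:**
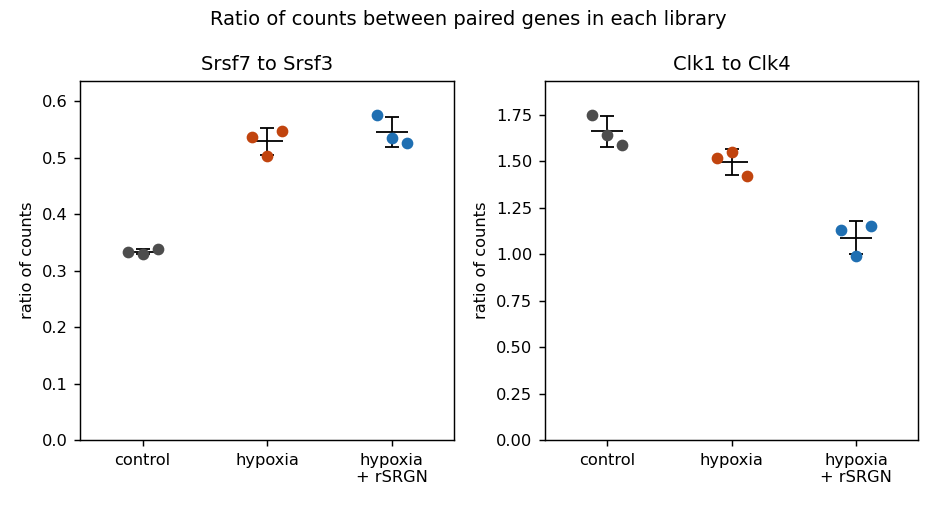
Ratio of counts within each library (y axis, from 0) for Srsf7 to Srsf3 and Clk1 to Clk4 in the 3 groups (x axis). Points are libraries and bars are the mean ± SD (n = 3); the Srsf7 to Srsf3 ratio is 0.33 to 0.338 in control and 0.502 to 0.576 in the 6 hypoxic libraries, and the Clk1 to Clk4 ratio is lowest in hypoxia + rSRGN.

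Added over the 8 SR genes, the level was 1449, 1326 and 1348 CPM in control, 1474, 1659 and 1529 CPM in hypoxia and 1314, 1304 and 1359 CPM in hypoxia + rSRGN. Hypoxia was the highest group, with no overlap with the others, while control and hypoxia + rSRGN overlapped. Hypoxia replicate 2 had the highest sum, and it was also the highest of its group in 8 of the 10 genes, all but Srsf1 and Srsf2. The 2 kinase genes together had 139 to 163 CPM in control, 160 to 204 CPM in hypoxia and 136 to 153 CPM in hypoxia + rSRGN.

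Likeness of pattern was measured as the root mean square difference of log2 CPM over the 9 libraries, after each gene was centred on its own mean. Among the 10 genes the most alike were Srsf6 and Srsf11 (0.064) and Srsf3 and Srsf6 (0.065), and the least alike were Srsf5 and Srsf7 (0.61). Among 9740 other genes with a mean of at least 10 CPM, the nearest to Srsf7 was Cep55 (0.04), a gene of cell abscission, whose log2 value was also 0.98 in hypoxia against control. Nearest to Srsf1 was Cab39l (0.042), to Srsf2 the tubulin gene Tuba1a (0.05), to Srsf3 the growth factor gene Gdf6 (0.044), to Srsf6 the mitochondrial protease gene Clpp (0.041) and to Srsf10 Usp16 (0.036). Nearest to Srsf11 was the isocitrate dehydrogenase gene Idh1 (0.041) and to Clk4 the cell adhesion gene Nptn (0.042). Srsf5 (Ints14, 0.076) and Clk1 (Upf3b, 0.092) had no neighbour as close as the others had. Upf3b encodes a nonsense-mediated decay factor, and its log2 value was 0.097 in hypoxia against control and -0.38 between the hypoxic groups. Neighbours were picked by likeness over these same libraries, so alike log2 values follow from the choice.

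The 10 genes were set beside lists of the rest of the splicing machinery, and every count of a list reads against the shares of all genes: 26.4% called higher and 25.1% called lower in hypoxia against control (36.8% and 34.1% with the adjusted p alone), and 2.27% called higher and 0.859% called lower between the hypoxic groups (10.5% and 6.11% with the adjusted p alone). Of 28 other SR-related proteins and SR kinases, 3 rose and 6 fell in hypoxia, with a median log2 value of 0.02. Srsf9, a further SR factor, rose 2.57-fold from 23.2 to 59.8 CPM (adjusted p = 3.23e-11), a larger fold than that of any of the 10, and the kinase gene Clk2 rose 2.24-fold (adjusted p = 4.78e-10). Srpk3, the SR kinase of muscle, fell 8.26-fold from 35.3 to 4.27 CPM (adjusted p = 2.2e-15), and the kinase gene Dyrk2 fell 3-fold (adjusted p = 1.25e-13). Of these 28 genes, 0 were called between the hypoxic groups, where 2.27% of all genes were called higher and 0.859% lower, and 4 were higher and 3 lower with the adjusted p alone.

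Of 38 core spliceosome genes, 13 rose and 2 fell in hypoxia (all genes: 26.4% and 25.1%), with a median log2 value of 0.48, against 0.23 for the 10 genes. With the adjusted p alone 25 were higher and 7 lower (all genes: 36.8% and 34.1%). Snrpg, a protein of the snRNP ring, rose 2.42-fold (adjusted p = 9.8e-12) and Prpf38b 1.86-fold (adjusted p = 2.79e-09). The 2 that fell both encode proteins of the U5 snRNP: Prpf8 fell 2.01-fold (adjusted p = 5.18e-11) and Snrnp200 fell 1.81-fold (adjusted p = 2.45e-09). Between the hypoxic groups 0 were called, while 13 were lower and 2 higher with the adjusted p alone (all genes: 6.11% and 10.5%), and the median was -0.19. Of 26 hnRNP and PTB genes, which often oppose SR proteins at exons, 4 rose and 1 fell in hypoxia (all genes: 26.4% and 25.1%), with a median of 0.21. Pcbp2 rose 1.95-fold (adjusted p = 2.77e-11), Ptbp1 rose 1.88-fold (adjusted p = 6.77e-11) and Hnrnph2 fell 1.51-fold (adjusted p = 1.34e-07). With rSRGN 0 of these were called against hypoxia, and 5 were lower and 1 higher with the adjusted p alone.

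The list named muscle splicing regulators holds 16 genes known to set splicing in heart muscle or widely. In hypoxia 9 were called lower and 0 higher (all genes: 25.1% and 26.4%), with a median log2 value of -0.83. With the adjusted p alone 13 were lower and 1 higher (all genes: 34.1% and 36.8%). Rbm5, Rbm10, Rbm25, Rbm39 and Khdrbs1 are not particular to muscle. Those and Rbfox1 and Mbnl1 were the 7 not called (log2 -0.41 to 0.37). Rbm20, which sets the splicing of titin in heart muscle, fell 14.3-fold from 340 to 23.8 CPM (adjusted p = 1.07e-17), and Rbm24, a further heart splicing factor, fell 13.2-fold from 247 to 18.8 CPM (adjusted p = 6.03e-16). In hypoxia + rSRGN they were the 2 genes of this list that were called against hypoxia (all genes: 2.27% called higher), Rbm24 1.84-fold higher at 34.7 CPM (adjusted p = 0.00033) and Rbm20 1.62-fold higher at 38.5 CPM (adjusted p = 0.000311). Over the whole list the median there was 0.25, against -0.24 for the 10 SR and CLK genes. The 10 cardiomyocyte markers moved with this list, with 10 called lower in hypoxia against control and 9 called higher in hypoxia + rSRGN against hypoxia; their part in the result was not tested.

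Of 14 nonsense-mediated decay factors, the pathway that removes poison exon transcripts, 3 rose and 4 fell in hypoxia, against 26.4% and 25.1% of all genes, with a median log2 value of 0.038. Upf3a rose 2-fold (adjusted p = 8.93e-10) and the exon junction gene Magoh 1.71-fold (adjusted p = 1.42e-07). Smg5 fell 2.15-fold (adjusted p = 2.08e-11) and the endonuclease gene Smg6 fell 1.77-fold (adjusted p = 2.58e-07). Between the hypoxic groups 0 were called, with 4 lower and 1 higher at the adjusted p alone.

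**Figure D4:**
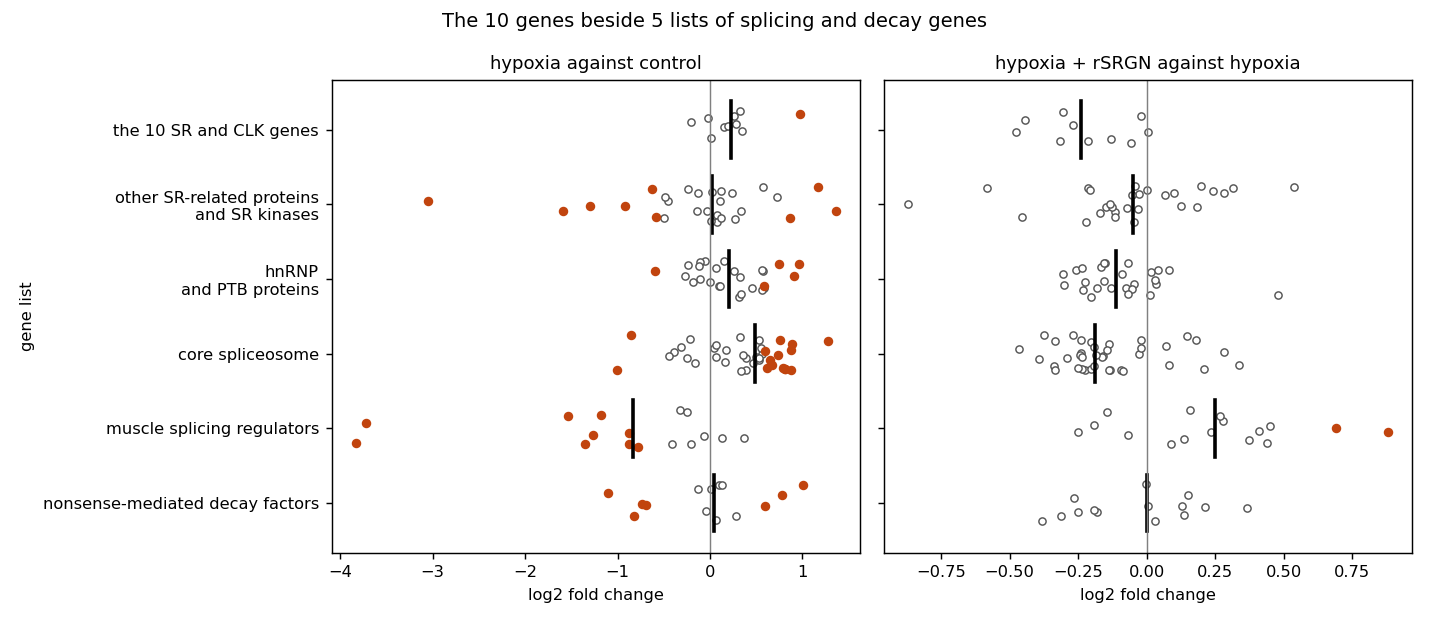
Log2 fold change (x axis) of the genes of each list (y axis) in hypoxia against control and in hypoxia + rSRGN against hypoxia; the x axes have different ranges. Each point is a gene, filled where called, and the black bar is the median of the list. The median of the 10 SR and CLK genes is 0.23 and -0.24. That of the list named muscle splicing regulators, which also holds general ones, is -0.83 and 0.25.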

How the data were processed

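The authors deposited a table of whole-number counts per gene, with no normalization. Per the file headers it was made by featureCounts 2.0.1 in paired-end mode on exons of GENCODE release 25 (GRCm38), with no strand option. The submitters' processing notes name HISAT2, with no version, and mm10. All 9 columns of counts were used and 0 were left unused. Libraries were grouped by their labels.

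Analysis was done with edgeR 4.0.16 in R 4.3.3: filterByExpr, TMM scaling, and a single quasi-likelihood fit with a mean per group over the 9 libraries, which held 16583985 to 22781557 counts. P-values were adjusted by Benjamini-Hochberg over the 16762 genes tested, and calls needed an adjusted p under 0.05 with a fold of 1.5 or more. Errors are the log2 fold change divided by the root of the F statistic, and intervals cover 95%. Log2 CPM for the likeness of patterns had a prior count of 2. The edgeR step was tested on simulated data. Ratios of counts were compared by exact permutation tests.

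Genes that share exons on opposite strands, or have near-identical copies, are uncertain without strand. Srsf3-ps, named after Srsf3, had 51 counts over the 9 libraries and was not tested, and Gm11508, antisense to 98 exon bases of Srsf1, had 3.

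The alternatives were DESeq2 1.42.0, RLE, upper quartile and library size scaling, filters of at least 1 count in all and at least 10 counts in every library, no fold limit, a block for the replicate number, a fit on just the libraries of the groups compared, and leaving out each library. The genes, the lists and these choices were made with earlier results of these data known. Named list genes are the 2 called genes that rose most and the 2 that fell most per list, in hypoxia against control and in hypoxia + rSRGN against hypoxia. Markers of endothelial cells (94.8 to 119, 91.3 to 100 and 104 to 126 CPM in control, hypoxia and hypoxia + rSRGN), smooth muscle and pericytes (440 to 531, 529 to 546 and 686 to 723 CPM) and red cells (at most 0.116 CPM) were also summed. In hypoxia against control 4 of the 6 endothelial markers were called lower (median log2 -0.96), and of the 5 smooth muscle and pericyte markers 1 was called higher and 1 lower (median log2 -0.39).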

Additional observations from a re-analysis of the deposited data

How the results depend on the processing

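Over the 10 genes and 3 comparisons, 540 log2 values under alternatives kept their direction and side of the call in 498, passed newly in 14 with no fold limit, lost the call in 1 and changed sign in 27. Without the fold limit the genes called were 6 in place of 1 in hypoxia against control, 6 in place of 0 between the hypoxic groups and 5 in place of 2 in hypoxia + rSRGN against control, and upper quartile scaling gave 1 in place of 2 in the last. Srsf7 stayed called in hypoxia against control, at log2 values of 0.91 to 1.11. With each library left out in turn, the genes past the adjusted p between the hypoxic groups were 2 to 6. Over all genes, 525 were called between the hypoxic groups, 321 to 699 with each library left out (lowest without hypoxia replicate 3, highest without hypoxia replicate 2) and 2790 without the fold limit. The share of these calls that was higher was 72.57%, and 57.86% under upper quartile scaling, 66.86% under library size alone, 80.66% under RLE scaling and 81.48% by DESeq2. Upper quartile scaling moved the median of all genes in hypoxia against control from 0.054 to 0.19.

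The values that changed sign were near 0 and were not called; the ranges with each library left out also hold values that kept their sign. Srsf2 in hypoxia against control was at -0.016 by DESeq2 and under RLE scaling, -0.045 with at least 1 count in all, -0.002 with only the groups compared, and -0.057 to 0.083 with each library left out. Srsf10 was at 0.11 under upper quartile scaling, 0.042 under library size alone and -0.13 to 0.033 with each library left out. Between the hypoxic groups, Srsf1 was at -0.041 under upper quartile scaling, -0.016 under library size alone and -0.01 to 0.028 with each library left out, Clk4 at 0.01 by DESeq2 and under RLE scaling and -0.096 to 0.073 with each library left out, and Srsf10 at -0.11 to 0.05 with each library left out. In hypoxia + rSRGN against control, Srsf3 was at -0.038 with at least 1 count in all and -0.051 to 0.043 with each library left out, Srsf6 at -0.002 with at least 1 count in all and Srsf10 at 0.011 under upper quartile scaling. The cause was not tested.

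Libraries with the same replicate number did not deviate together from their group means (correlations of -0.037 to 0.021 over 9 pairs). The labels state no pairing, and these correlations cannot tell whether libraries shared a litter or culture day with a small effect. With the replicate block, 1, 0 and 2 of the 10 genes and 8550, 495 and 8096 of all genes were called in the 3 comparisons in the same order, and 6, 5 and 5 of the 10 genes passed the adjusted p.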
